A study of Mus musculus with 9 samples.

Results

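The 10 genes described here encode AP-1 proteins and related immediate early transcription factors: Fos, Fosb, Fosl1, Fosl2, Jun, Junb, Jund, Egr1, Atf3 and Ier2. They were chosen by name from a table of 51912 mouse genes, and all 10 were present and passed the filter on low counts, among 17289 genes tested. RNA sequencing covered organoids cut from MMTV-PyMT mammary tumours of FVB/NJ mice, which also carried the (R26)pCA::mT/mG reporter of Cre activity. The 5 E-cad-KO samples had the Cdh1fl/fl genotype and the 4 WT samples had Cdh1+/+. Organoids of both groups, WT included, received adeno-Cre overnight and then spent 48 h in 3D collagen I with b-FGF2. The MMTV promoter drives the PyMT oncogene mainly in mammary epithelium, and adeno-Cre acts only in the cells it enters, so deletion need not be complete. Sex, age and the animals behind the samples are not given in the labels, and the p-values rest on the spread among these samples, which the series' design text calls biological replicates.

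AP-1 is a family of dimers held together by leucine zippers. Fos family proteins must pair with a Jun family protein, while Jun proteins can also pair with each other, and the dimers bind short TGA-type sites in promoters and enhancers. Most of these genes are immediate early genes: growth factors, stress or stretching of cells switch them on within minutes without new protein synthesis, largely through kinase cascades, serum response factor and its partners, and the messages decay fast. In breast cancer cells the Fosl1 protein, known as Fra-1, is associated with invasive and mesenchymal behaviour.

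Library totals ran from 44890302 to 64763645 counts. Levels are given as CPM (counts relative to library size) with edgeR's TMM factors, and 1 CPM equalled 44.2 to 64.3 counts. Counts for a member in a library ran from 100 for Fosb to 10959 for Junb. Cdh1, the floxed gene, held 86.5, 118.3, 85.2, 87.3 and 79.0 CPM in E-cad-KO 1 to 5, against 246.5, 150.3, 201.2 and 159.3 CPM in WT 1 to 4 (fold 0.482, edgeR adjusted p = 0.0275, called in 12 of 19 alternative settings). Libraries differed in markers of other cell types, WT 4 most in those of macrophages: the summed CPM of 8 macrophage markers was 25.5 to 151.1 in E-cad-KO and 17.4 to 91.5 in WT 1 to 3, but 363.7 in WT 4. Lyz2 held most of that sum, 307.5 CPM in WT 4, and none of the 8 markers was at 0 in any library. Fibroblast markers, 6 genes, summed to 117 to 199 CPM in E-cad-KO, 58.3 and 111 CPM in WT 1 and 2, and 291 and 322 CPM in WT 3 and 4. Endothelial markers, 5 genes, summed to 3.63 to 6.55 CPM in E-cad-KO and 5.20 to 11.2 CPM in WT, with negative log2 fold changes for all 5 and no call. Luminal markers, 6 genes, summed to 4050 to 5158 CPM in E-cad-KO and 3356 to 4616 CPM in WT, mostly from Krt8 and Krt18. None of the 6 was called, and they went both ways, with log2 fold changes of 0.39 for Krt8, 0.30 for Krt18, 0.17 for Epcam and 0.41 for Cldn3, but -0.57 for Krt19 and -0.38 for Elf5. Of 5 T cell markers, 4 were at 0 in at least 1 library. In whole organoids, fewer cells of a type and less RNA per cell cannot be told apart.

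No member was called between E-cad-KO and WT organoids. Calling required an adjusted p under 0.05 from edgeR's quasi-likelihood test (Benjamini-Hochberg, over all genes tested). By this rule 0 of 10 members passed, where 1.41% of all genes tested did (0.908% higher and 0.503% lower in E-cad-KO). At an unadjusted p under 0.05, 3 members passed, Junb, Jun and Fosl1, all on the higher side, beside 16.7% of all genes tested in either direction and 8.74% on the higher side. DESeq2 called 1 member and limma-voom 0. The log2 fold change was positive for 9 of 10 members, Egr1 being the exception, with a median of 0.22 over the members and -0.01 over all genes tested. The 9 positive values rest in part on WT 4, without which 7 were positive and the median was 0.16.

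**Figure D1:**
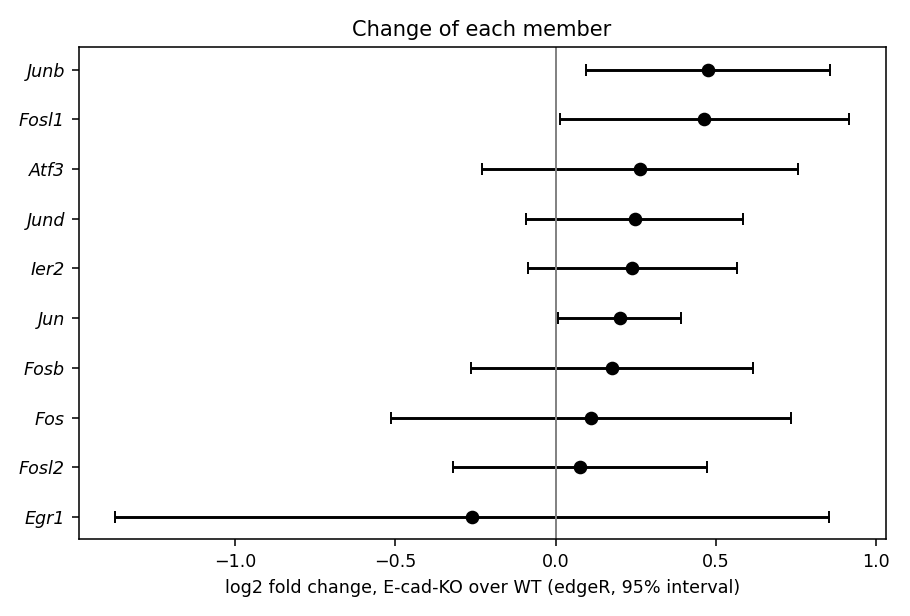
Log2 fold change of each member, E-cad-KO over WT (horizontal axis), from the edgeR fit over all tested genes, with genes down the vertical axis; points are estimates and bars are 95% intervals. Junb (0.48) and Fosl1 (0.46) stand highest, Egr1 (-0.26) is the only negative value, and its interval, from -1.38 to 0.85, is the widest.

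Promoter sequences were set beside these values. RefSeq's promoter table (build GRCm38.p6) matched 7 of 10 members; Fosl1, Egr1 and Ier2 had no entry. The 250 bases before the start are printed for Fos and Jun, which give the families their names, for Junb, the member whose groups did not overlap, and for Atf3, which ran opposite to Egr1 across libraries. Capitals mark matches on either strand. One motif searched was TGACGT, the core of the element through which cyclic AMP signalling acts on many promoters. The ATF type of AP-1 site was searched as TGACNTCA. The classical AP-1 site, which Fos and Jun dimers prefer, was searched as TGANTCA. The box that positions the start of transcription in some promoters was searched as TATAAA, and the CArG box of serum response factor was searched by its consensus. These motifs were chosen after the sequences were seen, and TGACGT lies within TGACNTCA where N is G.
Fos (chr12:85473640-85473889, plus strand): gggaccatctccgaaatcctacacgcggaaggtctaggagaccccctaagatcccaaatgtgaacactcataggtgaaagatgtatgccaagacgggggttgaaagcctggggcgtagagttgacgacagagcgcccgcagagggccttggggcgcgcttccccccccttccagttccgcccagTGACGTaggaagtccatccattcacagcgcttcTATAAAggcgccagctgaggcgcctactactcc
Jun (chr4:95052223-95052472, minus strand): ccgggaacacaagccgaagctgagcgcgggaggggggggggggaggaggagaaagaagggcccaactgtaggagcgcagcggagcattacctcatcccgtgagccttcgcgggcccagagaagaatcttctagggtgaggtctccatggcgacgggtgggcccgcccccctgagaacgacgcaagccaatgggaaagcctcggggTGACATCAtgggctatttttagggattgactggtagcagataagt
Junb (chr8:84978749-84978998, minus strand): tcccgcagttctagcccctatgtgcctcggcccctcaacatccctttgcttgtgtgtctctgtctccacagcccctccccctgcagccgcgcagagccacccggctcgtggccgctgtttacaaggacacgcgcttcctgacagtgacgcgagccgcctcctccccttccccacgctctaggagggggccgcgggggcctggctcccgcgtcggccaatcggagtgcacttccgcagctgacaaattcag
Atf3 (chr1:191183334-191183583, minus strand): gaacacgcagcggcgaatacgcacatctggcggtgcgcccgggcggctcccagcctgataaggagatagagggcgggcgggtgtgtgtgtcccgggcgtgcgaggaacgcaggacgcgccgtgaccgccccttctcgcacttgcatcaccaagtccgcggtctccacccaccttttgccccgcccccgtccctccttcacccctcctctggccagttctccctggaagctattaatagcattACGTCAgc
Fos held TGACGT from position -66 to -61 and TATAAA from -33 to -28, counted back from the RefSeq transcript's start. Jun held TGACATCA, a match to TGACNTCA, from -45 to -38, and Atf3 held ACGTCA, the other strand of TGACGT, from -8 to -3. Junb had no match, nor did Fosb, Fosl2 or Jund. Over all 32851 promoters of the table, windows of the same length held TGACGT in 6.47%, TGACNTCA in 7.49%, TGANTCA in 6.75%, TATAAA in 12.4% and a CArG box in 1.47%. None of the 7 windows held TGANTCA or a CArG box, and bases further upstream were not searched. A match is only a run of letters and does not show that a protein binds there.

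In the Fos family, Fosl1 had the largest log2 fold change and Fosl2 the smallest, and none was called. Fos (ENSMUSG00000021250, GRCm38 chromosome 12, 85473890 to 85477273), the founding partner of Jun, held 37.5, 46.8, 35.3, 25.5 and 29.4 CPM in E-cad-KO 1 to 5. In WT 1 to 4 it held 41.8, 34.6, 37.3 and 15.6 CPM. The ranges overlap, and WT 4 is the lowest of all 9 libraries. The means were 34.9 ± 8.15 CPM in E-cad-KO and 32.3 ± 11.5 CPM in WT (SD, n = 5 and n = 4), a fold of 1.1 with a 95% interval from 0.70 to 1.66. The sign of this value turned when WT 4 was left out, to a log2 fold change of -0.12.

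Fosl1 (ENSMUSG00000024912, chromosome 19, 5447547 to 5455946) held 9.55, 7.66, 9.33, 8.11 and 9.30 CPM in E-cad-KO 1 to 5. It held 6.13, 4.09, 5.89 and 9.38 CPM in WT 1 to 4. All E-cad-KO libraries lay above WT 1, 2 and 3, and only WT 4 reached into their range. The log2 fold change was 0.46 (SE 0.20, edgeR unadjusted p = 0.0449, adjusted p = 0.282). Without WT 4 it was 0.71 and passed the threshold (edgeR adjusted p = 0.0491), and over the 19 alternatives the adjusted p ran from 0.0491 to 0.457. Of its 2033 exon bases, 1163 also belong to Ccdc85b on the other strand, and the strand setting of the counting is not given in the sources used here. Ccdc85b itself averaged 13.4 ± 1.89 CPM in E-cad-KO and 12.4 ± 1.58 CPM in WT (SD, n = 5 and n = 4).

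Fosl2 (ENSMUSG00000029135, chromosome 5, 32135801 to 32157842), which encodes Fra-2, held 92.5, 105.4, 105.0, 91.4 and 88.6 CPM in E-cad-KO 1 to 5, against 116.6, 92.9, 101.1 and 55.9 CPM in WT 1 to 4. The E-cad-KO libraries lay within the WT range, whose low end was WT 4, and the fold was 1.05 (95% interval 0.80 to 1.39). Without WT 4 its log2 fold change was -0.10. Fosb (ENSMUSG00000003545, chromosome 7, 19302696 to 19310051), a member best known from activated neurons, was the lowest of all, at 3.97, 3.18, 2.26, 2.50 and 2.49 CPM in E-cad-KO 1 to 5 and 2.39, 2.18, 3.02 and 2.61 CPM in WT 1 to 4. The highest Fosb library was E-cad-KO 1, and the fold was 1.13 (95% interval 0.83 to 1.53).

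**Figure D2:**
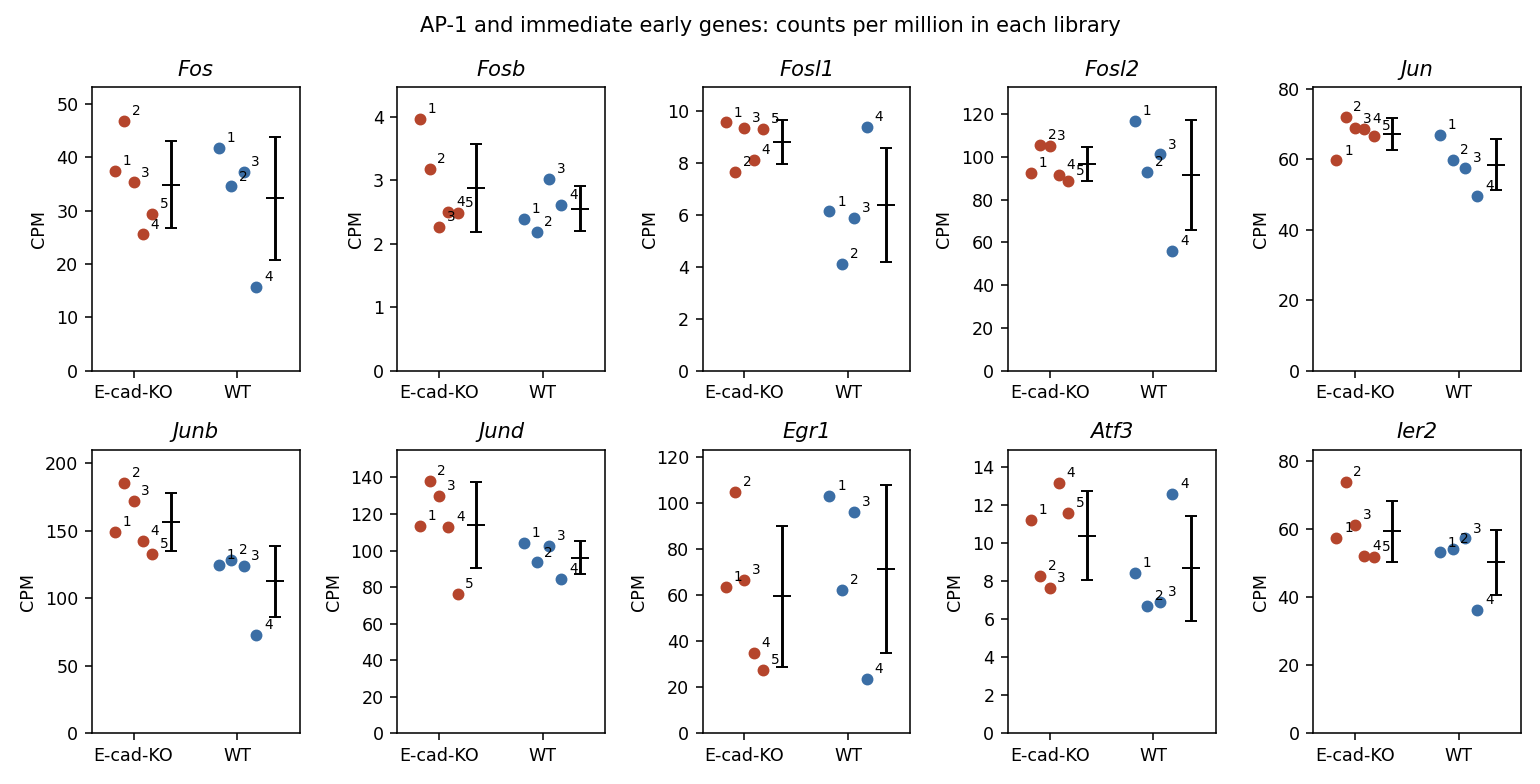
CPM of each member (vertical axis, from 0) in the 5 E-cad-KO and 4 WT libraries; points are libraries labelled by replicate number, and the bars beside them are mean ± SD. Junb is the one panel in which the groups do not overlap (132.8 to 185.2 against 72.7 to 128.2 CPM), and WT 4 is the lowest library for Fos, Fosl2, Jun, Junb, Egr1 and Ier2.

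In the Jun family, all E-cad-KO libraries exceeded all WT libraries for Junb, although it was not called. Junb (ENSMUSG00000052837, chromosome 8, 84974484 to 84978718), a Jun protein that often restrains Jun itself, held 149.3, 185.2, 172.3, 142.5 and 132.8 CPM in E-cad-KO 1 to 5. In WT 1 to 4 it held 124.9, 128.2, 123.9 and 72.7 CPM. The narrowest gap was between E-cad-KO 5 and WT 2, and WT 4 was far below the other WT libraries. It was the only member of 10 whose groups did not overlap, where 8.11% of all genes tested did not overlap, 4.28% on the higher and 3.83% on the lower side. The log2 fold change was 0.48 (SE 0.17, edgeR unadjusted p = 0.0193, adjusted p = 0.194), a fold of 1.39 with a 95% interval from 1.07 to 1.81. Without WT 4 it was 0.32 (edgeR adjusted p = 0.130). Junb was called by DESeq2 (adjusted p = 0.0494), and by edgeR with the macrophage marker level as a covariate (adjusted p = 0.0107, log2 fold change 0.45), an alternative chosen after seeing the data, under which 1312 genes were called in all. Exons of Junb share 173 bases with Prdx2 on the other strand, and Prdx2, a peroxide-reducing enzyme, was called lower (412.9 ± 12.1 CPM in E-cad-KO, 482.1 ± 6.08 CPM in WT, SD, n = 5 and n = 4, edgeR adjusted p = 0.0496).

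Jun (ENSMUSG00000052684, chromosome 4, 95049034 to 95052222), the AP-1 subunit that can act with or without Fos, held 59.7, 72.0, 68.8, 68.7 and 66.7 CPM in E-cad-KO 1 to 5. It held 66.9, 59.7, 57.6 and 49.5 CPM in WT 1 to 4. E-cad-KO 1 and 5 lay within the WT range and WT 1 and 2 within the E-cad-KO range, and Jun varied least of the members, 1.45-fold between its highest and lowest library. The log2 fold change was 0.20 (SE 0.09, edgeR unadjusted p = 0.0432, adjusted p = 0.278). Jun shares 232 exon bases with Junos on the other strand, which averaged 4.94 CPM in E-cad-KO and 5.02 CPM in WT.

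Jund (ENSMUSG00000071076, chromosome 8, 70698949 to 70700616), the Jun protein that is usually present without stimulation, held 113.6, 137.9, 129.8, 112.8 and 76.2 CPM in E-cad-KO 1 to 5 and 104.0, 93.5, 102.6 and 84.3 CPM in WT 1 to 4. Of the E-cad-KO libraries 4 lay above all of WT, and E-cad-KO 5 lay below all of WT. The fold was 1.19 (95% interval 0.94 to 1.5, edgeR adjusted p = 0.461). Jund shares 877 of its 1668 exon bases with Gm11175 on the other strand, which was at 0.27 to 0.46 CPM.

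Junb, Jund and Ier2 lie on chromosome 8, as Cdh1 does. Ier2 and Junb are 0.313 Mb apart, and Junb lies 21.6 Mb from Cdh1. Loss of E-cadherin and differences that came along with the floxed chromosome cannot be told apart for these 3 genes.

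Egr1 (ENSMUSG00000038418, chromosome 18, 34859823 to 34864984), a zinc finger factor and a classical readout of growth factor signalling, varied most of all members, 4.45-fold between libraries. It held 63.4, 104.7, 66.4, 34.8 and 27.5 CPM in E-cad-KO 1 to 5, and 103.0, 62.1, 95.8 and 23.5 CPM in WT 1 to 4. Each group had both high and low libraries, with coefficients of variation of 51.5% in E-cad-KO and 51.2% in WT. The fold was 0.83, with a 95% interval from 0.39 to 1.81, so the data bound any change only loosely. The 3 lowest Egr1 libraries, E-cad-KO 4, E-cad-KO 5 and WT 4, had the 3 highest macrophage sums (110.5, 151.1 and 363.7 CPM). WT 3 had the next highest macrophage sum, 91.5 CPM, yet was among the highest for Egr1 (95.8 CPM). The basal epithelial sums of E-cad-KO 4, E-cad-KO 5 and WT 4 were 3774, 3455 and 2370 CPM. The other E-cad-KO libraries held 3754 to 7795 CPM and the other WT libraries 5334 to 11466 CPM. Krt14 held most of these sums, 1874 CPM in WT 4, and the basal markers did not all move together. WT 4 had the lowest Krt14 and Trp63 (46.2 CPM) of all libraries, but the highest Acta2 (144.0 CPM) and Myh11 (4.24 CPM). The part of macrophages and basal cells in the Egr1 level was not tested.

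Atf3 (ENSMUSG00000026628, chromosome 1, 191170296 to 191218039), a stress-induced bZIP factor that can pair with Jun proteins, ran the other way across libraries. It held 11.2, 8.30, 7.64, 13.2 and 11.6 CPM in E-cad-KO 1 to 5, and 8.44, 6.71, 6.92 and 12.6 CPM in WT 1 to 4. Its highest E-cad-KO libraries were 4 and 5 and its highest WT library was 4, the same 3 that were lowest for Egr1. The fold was 1.2 (95% interval 0.85 to 1.69, edgeR adjusted p = 0.610). Ier2 (ENSMUSG00000053560, chromosome 8, 84661331 to 84662852), an immediate early nuclear protein, held 57.3, 73.8, 61.2, 52.2 and 51.8 CPM in E-cad-KO 1 to 5 and 53.1, 54.2, 57.2 and 36.1 CPM in WT 1 to 4. Apart from WT 4, its libraries overlapped, and the fold was 1.18 (95% interval 0.94 to 1.48).

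Divided by exon length, the Jun family stood above the Fos family in both groups. In E-cad-KO, Jund (68.4 CPM per kb) and Junb (68.0) came first, then Ier2 (38.9), Jun (21.1), Fos (14.8), Egr1 (13.2), Fosl2 (9.98), Atf3 (4.82), Fosl1 (4.32) and Fosb (0.461). In WT the order was Jund (57.6 CPM per kb), Junb (48.9), Ier2 (33.0), Jun (18.3), Egr1 (15.9), Fos (13.7), Fosl2 (9.47), Atf3 (4.03), Fosl1 (3.14) and Fosb (0.409). Neighbours in these orders whose libraries did not overlap were Junb and Ier2 in E-cad-KO, Ier2 and Jun in both groups, Fosl2 and Atf3 in E-cad-KO, and Fosl1 and Fosb in both groups. The other neighbours overlapped. Exon length is the union of all annotated exons, and exons that are not used in these cells lower a value. The exons of Jun, Jund and Ier2 fill the whole gene span.

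Shares of each family's total were computed on the same per-length scale. Fos made up 49.6 ± 4.86% of the Fos family in E-cad-KO and 50.0 ± 8.0% in WT (SD, n = 5 and n = 4), and Fosl2 34.0 ± 3.04% and 35.1 ± 1.44%. The Fosl1 share was 15.2, 10.7, 14.9, 16.2 and 17.2% in E-cad-KO 1 to 5, and 9.08, 7.56, 9.76 and 26.4% in WT 1 to 4. WT 4 had the highest Fosl1 share and the lowest Fos share (38.1%) of all libraries, and the other WT libraries lay below every E-cad-KO library for Fosl1. Junb made up 43.3 ± 1.97% of the Jun family in E-cad-KO and 38.7 ± 4.46% in WT (SD, n = 5 and n = 4), with WT 4 at 32.3%. These shares were not tested between the groups.

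**Figure D3:**
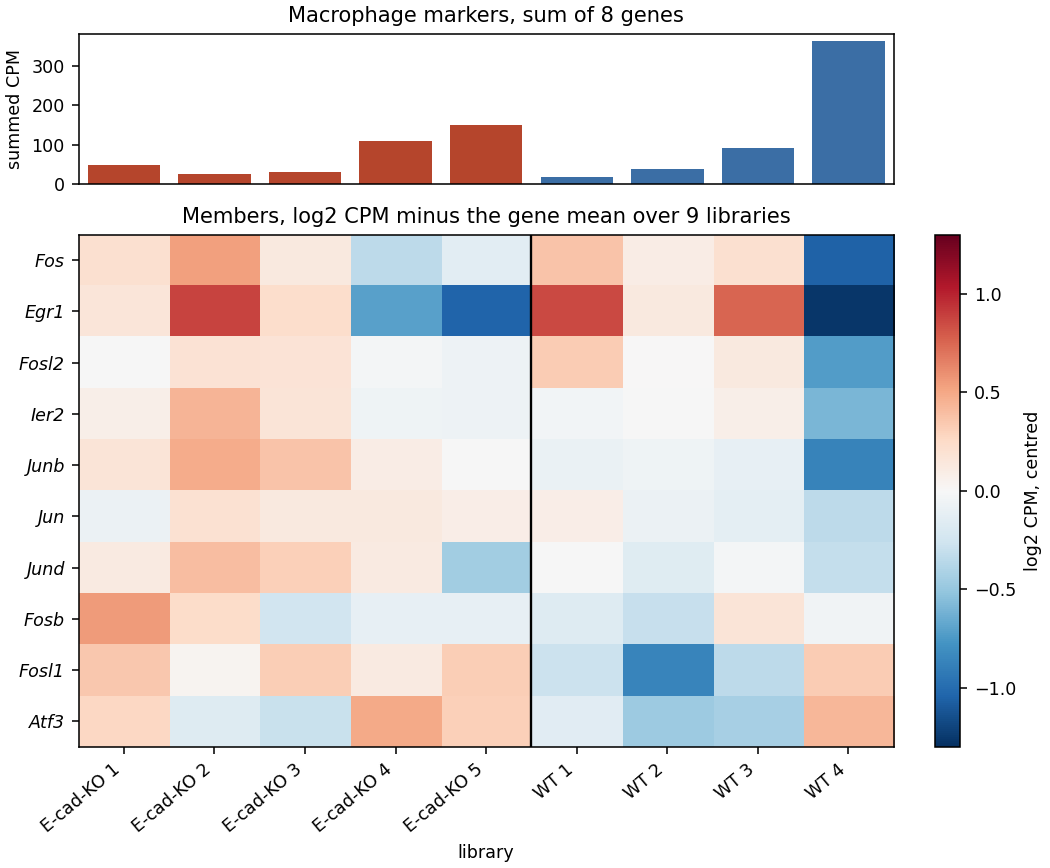
Top, summed CPM of 8 macrophage markers in each library (bars from 0); bottom, log2 CPM of each member minus its mean over the 9 libraries (colour), with E-cad-KO libraries left of the line and WT libraries right of it. WT 4 has the largest macrophage sum (363.7 CPM) and the lowest values of Fos (-1.05) and Egr1 (-1.27), while Fosl1 (0.33) and Atf3 (0.43) are above their means there.

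Across the 9 libraries the members fell into patterns that cut across genotype. Among Fos, Fosl2, Jun, Junb, Jund, Egr1 and Ier2, all 21 pairs had a positive Pearson r of log2 CPM, from 0.38 for Jun and Egr1 to 0.94 for Junb and Ier2. Fosl1 and Atf3 followed each other (r = 0.71), and 11 of their 14 pairs with those 7 genes had a negative r, the lowest being -0.77 for Egr1 and Atf3. Fosb followed none of them closely, its r running no higher than 0.34. These groupings were made after the values were seen, and the libraries share depth scaling and cell makeup, so the correlations describe these 9 samples.

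Much of this rested on WT 4. Over the 8 libraries without it, r stayed at 0.90 for Fos and Egr1, 0.82 for Junb and Ier2 and -0.71 for Egr1 and Atf3. It was 0.31 for Fos and Junb (0.80 with WT 4) and 0.01 for Fos and Jun (0.64 with WT 4). Of the 21 pairs among the 7 genes, 1 was then negative, Jun and Egr1 at -0.12. The pairs of Fosl1 and Atf3 with the 7 genes were then negative in 8 of 14 cases.

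**Figure D4:**
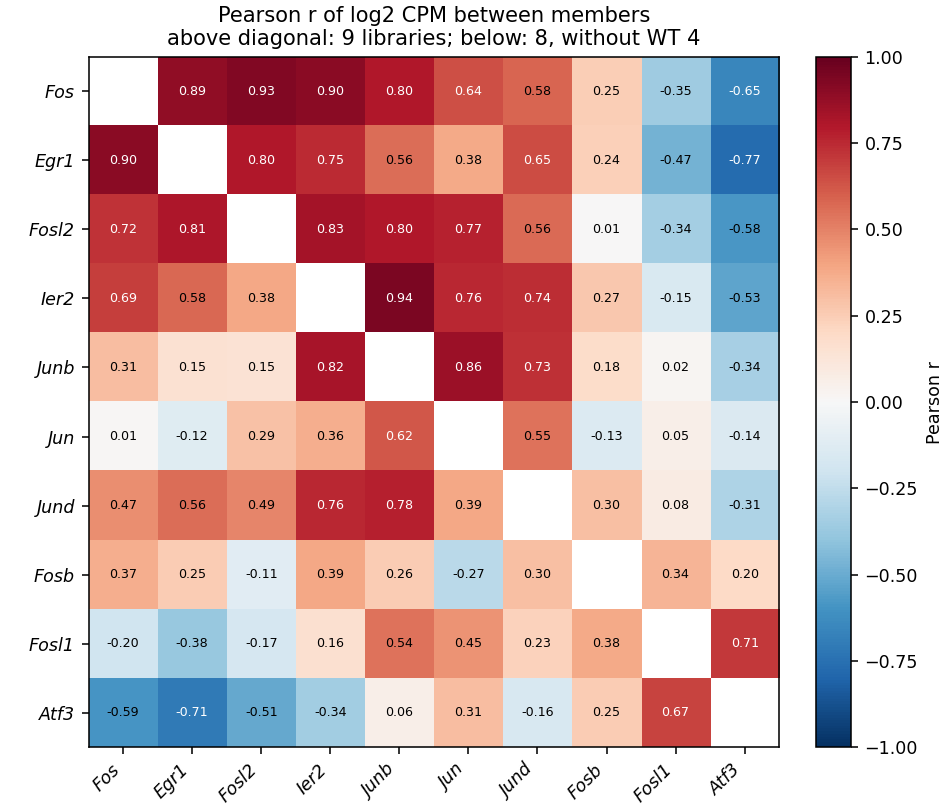
Pearson r of log2 CPM for the 45 pairs of members, as colour and number, over 9 libraries above the diagonal and over 8 libraries without WT 4 below it. Fos and Egr1 keep 0.89 and 0.90, whereas Fos and Jun go with 0.64 above the diagonal and 0.01 below it.

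Among 10711 other genes with at least 5 CPM, the genes most like each member over the 9 libraries were named by the same r. For Fos they were Ubr3 (0.97) and Aph1a (0.97), for Fosl2 Asxl2 (0.99) and Eml4 (0.98), and for Egr1 Palm (0.98) and Oplah (0.98). For Junb they were Spint2 (0.99) and Stk24 (0.99), for Jun Klf3 (0.97) and Pcsk6 (0.97), for Jund Ctnna1 (0.96), the alpha-catenin gene, and Mark4 (0.95), and for Ier2 Ehmt1 (0.97) and Klf13 (0.97). Fosl1 was most like Hpcal1 (0.97) and Myh10 (0.96), a non-muscle myosin heavy chain, Atf3 most like Zfyve26 (0.98) and Sfswap (0.97), and Fosb most like Rprd2 (0.94) and Dolpp1 (0.91). Among the members themselves, the closest partner was Fosl2 for Fos (0.93), Ier2 for Junb (0.94), Junb for Jun (0.86) and Ier2 for Jund (0.74).

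The related genes examined, called pathway genes below for short, were 88 genes in 5 lists, of which 87 were tested. The lists include 10 heat shock genes, which are not part of AP-1. Of the 87 genes, 5 were called higher in E-cad-KO and 1 lower, 6.90% beside 1.41% of all genes tested. The heat shock list gave 1 of these calls, Hsph1. The lists were drawn up with earlier results of these data known, so this share is a description. The calls depended on single libraries: of 19 alternatives, Hsph1 was called in 16, Ier5l in 13, Ptgs2 in 12, Klf6 in 10, Spp1 in 9 and Srf in 7, and leaving out WT 3 or E-cad-KO 4 left none of the 87 genes called.

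Other immediate early genes had positive log2 fold changes for 31 of 31 tested, beside 48.0% of all genes tested, with a median of 0.20. These signs are from all 9 libraries, and how many stay positive without WT 4 was not counted. WT 4 was the lowest of all libraries for most of these genes, among them Ier3 (230.3 CPM), Sik1 (16.4 CPM) and Klf6 (138.0 CPM). Of the genes tested, it was the highest library for Per1 alone (13.3 CPM). The positive signs therefore lean on WT 4. Of the 31 genes, 2 were called, both higher. Ier5l held 32.03, 33.7, 37.1, 36.5 and 29.9 CPM in E-cad-KO 1 to 5 and 18.2, 23.6, 22.5 and 24.1 CPM in WT 1 to 4, so that the groups did not overlap (log2 fold change 0.61, SE 0.10, edgeR adjusted p = 0.0272). Klf6, a Kruppel-like zinc finger factor, averaged 193.0 ± 11.4 CPM in E-cad-KO and 148.4 ± 11.9 CPM in WT (SD, n = 5 and n = 4; log2 fold change 0.38, SE 0.07, edgeR adjusted p = 0.0341). The third by p was the orphan nuclear receptor gene Nr4a2, at a log2 fold change of 0.45 without a call (edgeR adjusted p = 0.0655). Leaving out WT 3, or any of E-cad-KO 1 to 4, left no gene of this list called.

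Among genes upstream of AP-1, 1 was called. Srf, the serum response factor that binds the CArG box, held 58.6, 51.8, 58.5, 56.3 and 56.2 CPM in E-cad-KO 1 to 5, against 39.4, 45.6, 49.0 and 41.3 CPM in WT 1 to 4. The groups did not overlap (log2 fold change 0.36, SE 0.07, edgeR adjusted p = 0.0421), but leaving out any 1 library lost the call (edgeR adjusted p from 0.0580 to 0.109). Srf was the only call among 17 upstream genes, whose median was 0.06. Its partner Elk3 stood at 0.33 (edgeR adjusted p = 0.156) and its coactivator Mrtfa at 0.17 (0.447). Among 13 bZIP partners and Egr corepressors 0 were called by edgeR, and 2 were called by DESeq2 and by limma-voom. At an edgeR unadjusted p under 0.05, 2 of the 13 passed, beside 16.7% of all genes tested. The smallest p in this list belonged to the small Maf genes Mafk (0.33, edgeR adjusted p = 0.0633) and Maff (0.56, edgeR adjusted p = 0.0809). Each was higher in all E-cad-KO than in all WT libraries, as were 4.28% of all genes tested. Next by p was the Egr corepressor gene Nab1 (0.15, edgeR adjusted p = 0.453).

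Of 16 known AP-1 target genes tested, Ptgs2 was called higher and Spp1 lower, with a median of 0.06. This split depended on the setting: DESeq2 and limma-voom each called 4 higher and 1 lower, and edgeR called 3 higher and 0 lower without WT 4, and the same numbers without both WT 1 and WT 4. Leaving out WT 2, WT 3 or any of E-cad-KO 1 to 4 left 0 called, and leaving out E-cad-KO 5 left 1, on the higher side. Ptgs2, the inducible prostaglandin synthase, held 284.0, 288.0, 252.1, 244.7 and 245.9 CPM in E-cad-KO 1 to 5 and 200.03, 160.9, 134.3 and 146.5 CPM in WT 1 to 4 (log2 fold change 0.71, SE 0.11, edgeR adjusted p = 0.0267). Spp1, osteopontin, averaged 6372 ± 478 CPM in E-cad-KO and 8701 ± 976 CPM in WT (SD, n = 5 and n = 4; log2 fold change -0.45, SE 0.09, edgeR adjusted p = 0.0460). The growth factor gene Hbegf was at 0.46 without a call (edgeR adjusted p = 0.0682), and the matrix protease genes Mmp3 (-0.23), Mmp13 (-0.34), Mmp9 (0.04) and Mmp10 (-0.02) were not called. At an edgeR unadjusted p under 0.05, 6 of the 16 target genes passed, 5 higher and 1 lower, beside 16.7% of all genes tested.

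Of 10 heat shock genes tested, 1 was called: the chaperone gene Hsph1, at 170.7 ± 13.4 CPM in E-cad-KO and 104.5 ± 14.1 CPM in WT (SD, n = 5 and n = 4; log2 fold change 0.71, SE 0.09, edgeR adjusted p = 0.0145). Hspb1 (0.34, edgeR adjusted p = 0.0511) and Hspa1b (0.43, edgeR adjusted p = 0.0880) were next by p, and the median of the list was 0.04.

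**Figure D5:**
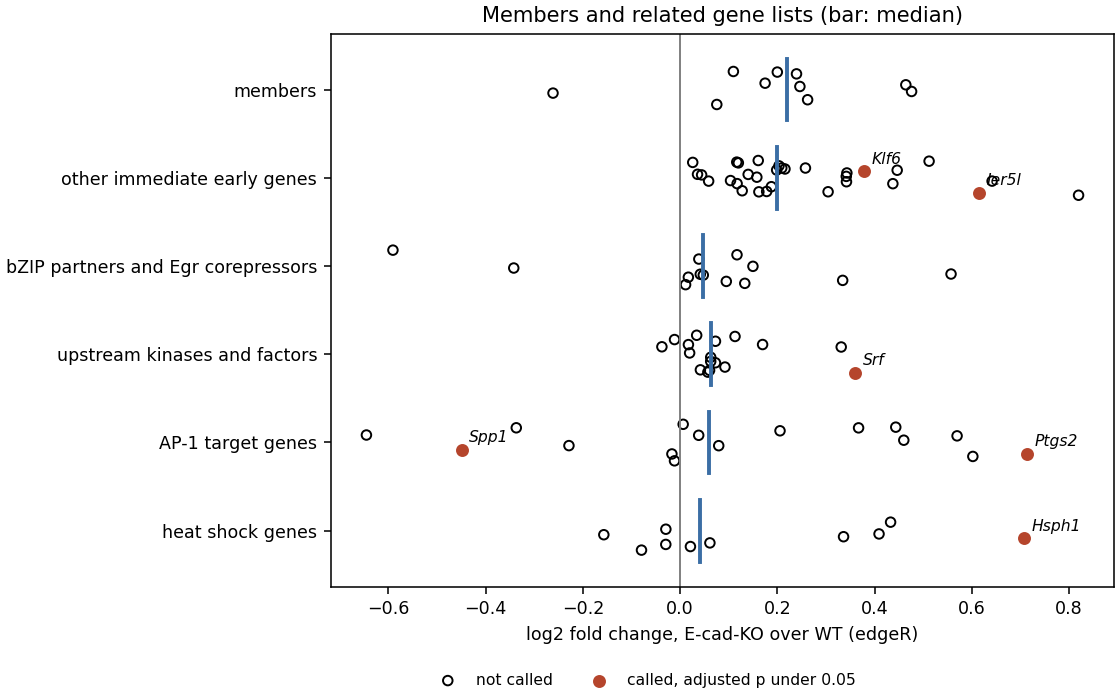
Log2 fold changes, E-cad-KO over WT (horizontal axis), of the 10 members and of 5 related lists (rows); filled points are genes called at an adjusted p under 0.05, open points are genes not called, and the vertical bar is the median of each list. With all 9 libraries in the fit, the 31 other immediate early genes all lie above 0, with Ier5l (0.61) and Klf6 (0.38) called.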

How the data were processed

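The authors deposited unnormalised counts per Ensembl gene for 9 libraries. The labels' protocols describe flash-frozen gels, RNeasy extraction and a stranded TruSeq mRNA kit. GRCm38, HTSeq, TopHat2 and Bowtie2 are named in the submitters' processing notes. The labels give no version, setting, strand option or annotation release for them.

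Symbols came from a name table (51633 of 51912 genes), positions and exon overlaps from GENCODE M21 on GRCm38. The main test was edgeR 4.0.16 in R 4.3.3 (quasi-likelihood F-test, robust, TMM, filterByExpr, group as the only term; two-sided). Standard errors are the log2 fold change over the square root of F. Correlations used log2 CPM with a prior count of 2. Alternatives were median-of-ratios and upper-quartile factors, a filter of 1 CPM in 4 libraries, a looser filter of 1 count, limma-voom (limma 3.58.1), DESeq2 1.42.0, non-robust dispersions, a replicate block, each library left out, and WT 1 and WT 4 left out; the macrophage covariate was added after seeing the data. Members, lists and alternatives were chosen with earlier results of these data known. Named genes are Cdh1, the members, called genes and the 3 smallest p of each list, and 2 like genes per member; Prdx2, other overlap partners and the Mmp genes were added after their values were seen. The values of 1 listed gene are not reported here. On counts simulated for this comparison (17289 genes), edgeR recovered 50.0%, 58.5% and 85.5% of genes changed 1.5-, 2- and 4-fold with 3.88% false calls. DESeq2 made 21.3% false calls and limma-voom 3.94%. The simulation was run once and drew each gene independently, so it lacked shifts shared by many genes of a library, such as those of WT 4. These rates need not hold for the real counts. No 2 libraries agreed within sampling noise (chi-square per degree of freedom at least 14.8).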

Additional observations from a re-analysis of the deposited data

Results flagged for a closer look

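Junb in WT 4 lay far below the other WT libraries, at 72.7 CPM against 123.9 CPM in the nearest of them, a gap of 0.922 of the group's range. It was the 1 value set apart in this way among 20 groups of libraries examined for the 10 members, where chance alone sets apart about 1 group in 20.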

How the results depend on the processing

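Over all genes tested, 244 were called (157 higher, 87 lower). DESeq2 called 1206, limma-voom 511, the macrophage covariate 1312 and the fit without both WT 1 and WT 4 79; with 1 library left out the count ran from 9 (without WT 3) to 334 (without WT 4). Upper-quartile scaling turned the split to 123 higher and 151 lower. Members called numbered 0, but 1 with DESeq2, with the macrophage covariate (Junb both times) and without WT 4 (Fosl1); the range with 1 library left out was 0 to 1. Pathway genes called numbered 6, against 19 with DESeq2, 12 with limma-voom, 20 with the covariate, and 0 to 6 with 1 library left out. Signs turned for Fos with limma-voom (-0.0099), without E-cad-KO 2 (-0.02), without WT 4 (-0.12) and without WT 1 and WT 4 (-0.039), for Fosl2 without WT 4 (-0.10) and without WT 1 and WT 4 (-0.0037), and for Egr1 with the replicate block (0.019). With 1 library left out, Fos ran from -0.12 to 0.26 and Fosl2 from -0.10 to 0.22. The other 7 members kept a positive sign in all 19 alternatives. The replicate block called 0 genes overall (2418 at an unadjusted p under 0.05), 0 members and 0 pathway genes. Under it all 10 members were positive, and 4 had an edgeR unadjusted p under 0.05. Deviations of same-numbered libraries from their group means had r = -0.32, 0.23, -0.03 and 0.28, and 3 of 8 libraries correlated best with their own number. So few values cannot decide whether the number marks a pairing, and the main fit used none. The causes of these shifts were not tested.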
